A study of Cricetiscus sungorus with 216 samples.

Results

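The transcripts of the mediobasal hypothalamus (MBH) were compared between long photoperiod (LP) and the early weeks of short photoperiod (SP) in adult male Djungarian (Siberian) hamsters. The comparison holds 18 of the 216 libraries in the series, chosen by their labels alone: 6 from hamsters in LP, 6 after 4 weeks SP and 6 after 8 weeks SP. Early SP means the 12 libraries of 4 and 8 weeks together. All hamsters were raised in LP with food and water freely available, and the LP group stayed there while the others were moved to short days. Each library came from the bilateral MBH punches of 1 hamster, killed a few hours after lights on. Hours since the last dusk therefore differed with photoperiod and cannot be told apart from it. The comparison asks which MBH transcripts have already moved when the winter state is being induced.

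As background, photoperiod reaches the MBH through melatonin, which is secreted for longer on long nights. Melatonin acts on thyrotroph cells of the pars tuberalis, the sheath of pituitary tissue around the median eminence. On long days these cells release thyroid-stimulating hormone (TSH), a dimer of the beta subunit from Tshb and the common glycoprotein alpha subunit from Cga. TSH acts on tanycytes, the glial cells that line the floor of the third ventricle. Tanycytes set local thyroid hormone through deiodinase type-2 (Dio2), which makes the active hormone, and deiodinase type-3 (Dio3), which degrades it. They also make and bind retinoic acid.

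The deposited values are estimated counts per isoform from reads aligned to the mouse genome, so transcripts that differ much between hamster and mouse can be undercounted. Isoform values sharing a gene symbol were added, and levels are given as CPM, each count relative to its library's total after TMM scaling. The isoforms of a gene often hold the same number in a library (Cga's 2 isoforms in 13 of 18 libraries), so a sum is not a number of reads, and genes with 1 isoform are named as such. Total counts were 371982 to 3844614 in LP, 893464 to 6699796 at 4 weeks and 232745 to 3813232 at 8 weeks, of which 11.2% to 65.7% went to 1 symbol, Gm32262. The library of 8 weeks replicate 2 stood apart, with the lowest total and the lowest correlation with its group median (0.675, across genes). That of 4 weeks replicate 1 was next (0.768). The arcuate neuropeptides Pomc, Npy, Agrp and Cartpt were counted in 18 of 18 libraries, as MBH tissue should have, but their circuit's list summed to 85.7 and 189 CPM at 4 weeks replicates 3 and 2, against 420 to 831 CPM in LP. The neuron markers summed to 1806 to 3986 CPM in LP and 1524 to 4732 CPM in early SP apart from 8 weeks replicate 2, with 358 CPM. In punches, fewer cells of a type and less RNA per cell cannot be told apart.

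Few transcripts passed the test. Of 20156 genes, 9 changed between early SP and LP (0.0447% of those tested), 3 higher and 6 lower, in edgeR's quasi-likelihood test at a false discovery rate below 0.1. Among these Tshb fell the most by the fitted log2 fold change, and Cga fell with it. Chrna3, Prr32 and Dhrs7c rose. The others that fell were Upp2, Plac1, Platr25 and Kif14. At an unadjusted p below 0.05 there were 329 genes higher (1.63%) and 774 lower (3.84%), and DESeq2 called 13, with 10 higher and 3 lower. At 4 weeks alone 2 genes changed (0.00992%), Tshb and Chrna3, and at 8 weeks alone 4 (0.0198%), the same pair with Prr32 and Upp2. These comparisons share the 6 LP libraries.

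Tshb, the hormone-specific subunit of TSH, had between 104 and 694 CPM in LP, with a median of 488 CPM. At 4 weeks it lay between 0.409 and 40.4 CPM, with a median of 12.0 CPM. At 8 weeks 4 of 6 libraries were at 0 and the others had 0.462 and 10.7 CPM. The highest early SP library was thus below the lowest LP library. Tshb fell from a mean of 438 ± 223 CPM in LP (SD, n = 6) to 7.98 ± 11.6 CPM in early SP (SD, n = 12), 54.95 times lower. The log2 fold change was -6.33 (standard error 0.75, adjusted p = 4.36e-07, edgeR), and an exact permutation test of mean CPM gave its smallest possible p, 5.39e-05 (2-sided). At 4 weeks the log2 fold change was -5.11 (standard error 0.93, adjusted p = 0.024, edgeR). That call was lost without 4 weeks replicate 4, 5 or 6, with adjusted p = 0.113, 0.107 and 0.14 from edgeR. At 8 weeks it was -7.54 (standard error 1.08, adjusted p = 0.000102, edgeR) and held without any single library. Of the 21 counts at 8 weeks 20 were in replicate 5, and without it the log2 fold change in early SP was -8.08 (adjusted p = 3.08e-08, edgeR).

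Cga, the alpha subunit that TSH shares with the gonadotrophins, followed the same order at a higher level. It had 365 to 1384 CPM in LP (median 867), 1.24 to 277 CPM at 4 weeks (median 71.1) and 24.6 to 156 CPM at 8 weeks (median 60.0). Again no early SP library reached the lowest LP library. Cga fell to 0.1 of its LP mean, with a log2 fold change of -3.35 (standard error 0.75, adjusted p = 0.0949, edgeR) and an exact permutation p of 5.39e-05, the smallest possible. Tshb and Cga were the only genes of 20156 with all 12 early SP libraries below every LP library (0.00992%). No gene had all 12 above (0.0%). Shares over all genes were not counted for the partial separations and the 8 weeks separations of single genes given below. The adjusted p of Cga lay close to the threshold and passed it in 7 of 28 alternative settings. The least Cga at 4 weeks, 1.24 and 1.88 CPM, was in replicates 2 and 3, the libraries low in arcuate transcripts. Tshb in these libraries was 11.8 and 13.2 CPM, beside a 4 weeks median of 12.0 CPM. At 8 weeks the arcuate list summed to 307 to 635 CPM, against 420 to 831 CPM in LP. The part of punch content in the Tshb and Cga results was not tested.

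**Figure D1:**
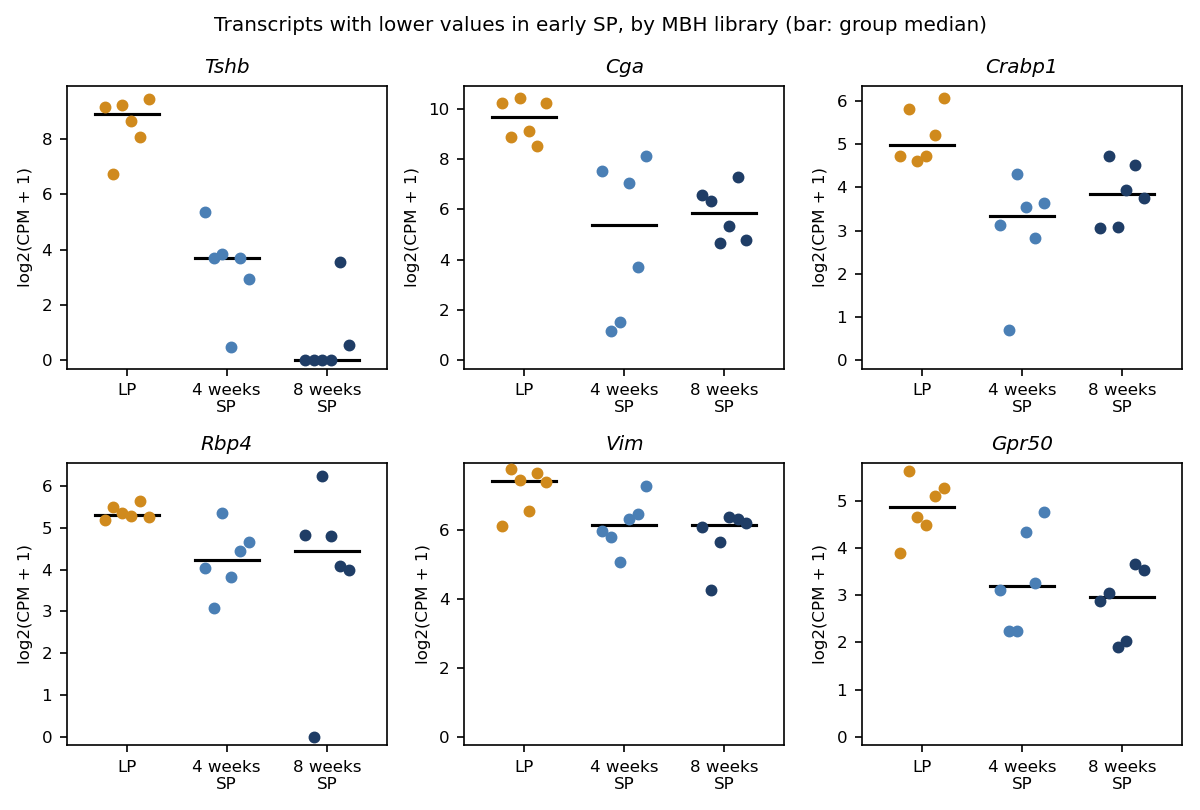
Level of 6 transcripts in each MBH library, as log2(CPM + 1) on the y axis, in LP, at 4 weeks SP and at 8 weeks SP on the x axis, with 6 points (hamsters) and a bar at the median for each group. Tshb and Cga have no early SP point as high as an LP point, Crabp1 has 1 early SP library within the LP range, and Rbp4, Gpr50 and Vim overlap more.

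Markers of the pituitary gland itself had no called change, and their sums overlapped between the groups. The 7 of 9 pituitary markers in the table (Gh, Prl, Lhb, Fshb, Gnrhr, Pitx1 and Tbx19) summed to 0 to 229 CPM in LP, 0 to 56.5 CPM at 4 weeks and 0 to 8.18 CPM at 8 weeks. Pitx1 was at 0 in every LP library. Lhb, the luteinizing hormone beta subunit, made up most of the highest sum, with 205 CPM in LP replicate 3. Lhb overlapped between the groups, with 0 to 205 CPM in LP (median 7.73) and a median of 1.61 CPM at 4 weeks and of 0 at 8 weeks (log2 fold change -3.52, adjusted p = 0.36, edgeR). This was -1.56 without LP replicate 3 (adjusted p = 0.95) and -4.88 without 4 weeks replicate 6 (adjusted p = 0.0452, edgeR). In LP replicate 4 all 7 markers were at 0 while Tshb had 404 CPM and Cga 551 CPM, and in LP replicate 1 they summed to 1.27 CPM while Tshb had 571 CPM. LP replicate 4 had the lowest total of the LP libraries (371982 counts), so low markers can be missed there. Without LP replicate 3, Tshb was still called and Cga had a log2 fold change of -3.16 (adjusted p = 0.223, edgeR). The Cga call was also lost without LP replicate 1, 2, 4 or 6 (adjusted p of 0.108 to 0.2, edgeR). The part of pituitary tissue in the Tshb and Cga results beyond these values was not tested.

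The other members of the pars tuberalis and TSH list did not pass the test. Of its 7 genes, 2 were called lower (0.0447% of all genes were called) and 3 were lower at an unadjusted p below 0.05 (3.84% of all genes), and the median log2 fold change was -1.42, beside 0.00 over all genes. Nmu, the neuropeptide neuromedin U, had a mean of 2.72 CPM in LP, 1.82 CPM at 4 weeks and 0.0890 CPM at 8 weeks (log2 fold change -2.32, adjusted p = 0.605, edgeR). Tac1, the precursor of substance P, had 53.6, 45.5 and 31.3 CPM, and Eya3, a co-activator of Tshb, 8.77, 6.71 and 6.16 CPM. The melatonin receptor Mtnr1a was at 3 counts in LP, 4 at 4 weeks and 0 at 8 weeks, too few to compare.

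Chrna3, the alpha 3 subunit of nicotinic acetylcholine receptors, had the smallest p among the transcripts that rose. It has 1 isoform. It had 0 to 2.98 CPM in LP (median 1.36), 0 to 37.03 CPM at 4 weeks (median 12.2) and 5.46 to 30.4 CPM at 8 weeks (median 19.6). Of the 12 early SP libraries 10 were above every LP library, and the others were 4 weeks replicates 1 and 3. The mean rose 11.1 times, with a log2 fold change of 3.23 (standard error 0.56, adjusted p = 0.00482, edgeR) and an exact permutation p of 0.00716 (2-sided). At 4 weeks the log2 fold change was 3.05 (standard error 0.59, adjusted p = 0.0419, edgeR), which was lost without any of LP replicates 1 to 4 (0.172 to 0.229) or 4 weeks replicates 4 to 6 (0.107 to 0.302).

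Of the 13 nicotinic receptor subunits in the table, 1 was called higher, Chrna3, beside 0.0447% of all genes called, and 2 were higher at an unadjusted p below 0.05, Chrna3 and Chrnb4, beside 1.63% of all genes. Chrnb4, the beta 4 subunit that assembles with alpha 3 and lies beside it in the genome, had 0 to 6.95 CPM in LP (median 1.95), 0.942 to 21.8 CPM at 4 weeks (median 7.21) and 0 to 13.9 CPM at 8 weeks (median 9.86). Its early SP values overlapped LP in 4 of 12 libraries (log2 fold change 1.73, standard error 0.66, adjusted p = 0.715, edgeR). Chrna5, the third gene of that cluster, had 0.496 CPM in LP, 0.596 CPM at 4 weeks and 0.317 CPM at 8 weeks. Chrnb2, the beta subunit most common in the brain, had 3.28, 1.77 and 1.73 CPM (adjusted p = 1.00). The median log2 fold change of the list was 0.65.

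Prr32, with 1 isoform, was near 0 in LP and present in most early SP libraries. It had 1 count in LP, in replicate 5. At 4 weeks it had 0 to 6.06 CPM (median 1.81) and at 8 weeks 1.36 to 14.6 CPM (median 4.48). The early SP libraries exceeded every LP library in 10 of 12 (log2 fold change 4.48, standard error 0.90, adjusted p = 0.0343, edgeR), and the exact permutation p was 0.0237. Dhrs7c, a dehydrogenase of the sarcoplasmic reticulum with 1 isoform, had 0 to 0.852 CPM in LP and medians of 4.31 CPM at 4 weeks and 5.90 CPM at 8 weeks. It too was above every LP library in 10 of 12 (log2 fold change 3.63, standard error 0.81, adjusted p = 0.0949, edgeR; exact permutation p = 0.00663). Its call was lost in 18 of 27 alternative settings and that of Prr32 in 5 of 27, among them without LP replicate 2, 3 or 6. Without LP replicate 5 the log2 fold change of Prr32 was 5.70 and that of Dhrs7c 4.23 (edgeR). The skeletal muscle markers summed to 12.8 to 177 CPM in LP and 3.85 to 32.0 CPM in early SP, and their part in the Dhrs7c result was not tested.

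**Figure D2:**
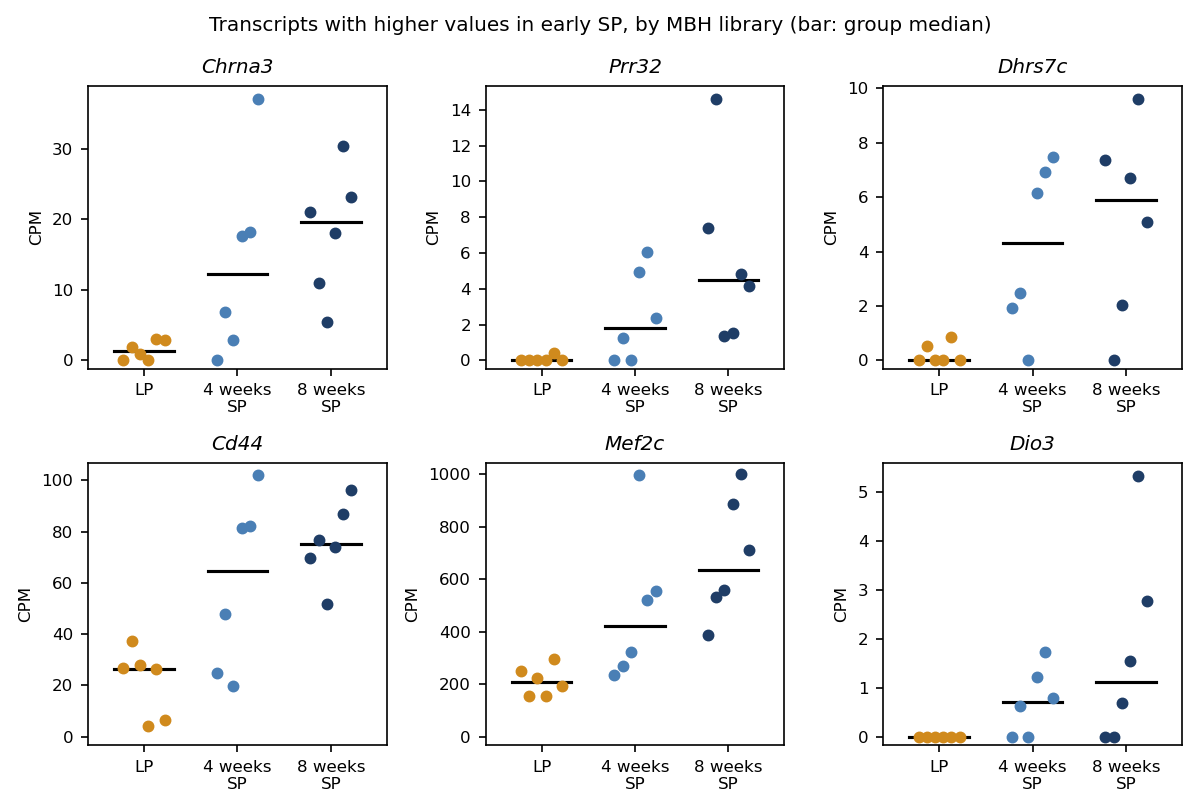
Level of 6 transcripts in each MBH library in CPM (y axis, linear) in LP, at 4 weeks SP and at 8 weeks SP (x axis), with 6 points (hamsters) and a bar at the median for each group. For Chrna3, Prr32, Dhrs7c, Cd44 and Mef2c, 10 of 12 early SP libraries are above every LP library, and Dio3 is at 0 in LP and in 4 early SP libraries.

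The 4 other transcripts that fell were read in 2 to 5 of the 6 LP libraries. Upp2, a uridine phosphorylase, was read in 4 LP libraries, with 9.38 to 37.6 CPM, in 2 at 4 weeks, with 0.621 and 4.45 CPM, and in 0 at 8 weeks. Its log2 fold change was -5.52 over the sum of 15 isoforms (adjusted p = 0.017, edgeR), -3.26 with the highest isoform and -6.72 without 4 weeks replicate 6. The call was lost with DESeq2 (adjusted p = 0.998) and in the 18 libraries alone (0.317). Plac1 was read in 5 LP libraries, at up to 11.6 CPM, in 2 at 4 weeks and in 1 at 8 weeks (log2 fold change -4.05, adjusted p = 0.0676, edgeR). Its call was lost in 12 of 27 alternatives, among them DESeq2 (adjusted p = 0.755) and the 18 libraries alone (0.317), and its log2 fold change was -4.98 without 4 weeks replicate 6 and -4.74 without 8 weeks replicate 6. Platr25, a noncoding RNA, and Kif14, a kinesin of dividing cells, were each read in 2 LP libraries. Nearly all of their LP level came from 1 of these, with 29.6 CPM of Platr25 in replicate 3 and 10.4 CPM of Kif14 in replicate 6. Without that library the adjusted p was 0.704 and 0.941 (edgeR).

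Among genes counted in at least 9 of the 18 libraries, further transcripts with the smallest p did not pass the threshold in edgeR. DESeq2 called Cd44 (adjusted p = 0.0705), Mef2c (0.0536), Bc1 (0.0382) and 2810433D01Rik (0.0191). Cd44, the receptor for hyaluronan, had 4.03 to 37.1 CPM in LP (median 26.6), 19.8 to 102 CPM at 4 weeks (median 64.6) and 51.8 to 96.1 CPM at 8 weeks (median 75.3). All 6 libraries of 8 weeks were above every LP library (exact permutation p = 0.00216 at 8 weeks, the smallest possible). Cd44 and Mef2c are named for a small p in these same libraries, and how many of all genes separate so was not counted. The log2 fold change of Cd44 in early SP was 1.63 (standard error 0.43, adjusted p = 0.316, edgeR). Mef2c, a transcription factor of neurons and muscle, had a median of 207 CPM in LP, 422 CPM at 4 weeks and 636 CPM at 8 weeks, with all 6 of 8 weeks above every LP library (log2 fold change 1.44, standard error 0.40, adjusted p = 0.36, edgeR).

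Inhba, Cited4 and Hspb7 were close to 0 in LP. Inhba, the beta A subunit of activin and inhibin, had 3 counts in LP, 44 at 4 weeks and 68 at 8 weeks (log2 fold change 3.71, adjusted p = 0.316, edgeR). Cited4, a transcriptional co-regulator, was above every LP library in 10 of 12 early SP libraries (log2 fold change 2.67, adjusted p = 0.338, edgeR). Hspb7, a small heat shock protein of muscle with 1 isoform, had 0 counts in LP and 31 in early SP, at least 5.00-fold higher than the limit of 3 counts over the LP group. The noncoding RNA Bc1 and 2810433D01Rik had their highest values in 4 weeks replicate 1, with 392600 and 12140 CPM, against medians of 9899 and 141 CPM in LP. At 8 weeks their medians were 38460 and 755 CPM, and their adjusted p for early SP was 0.383 and 0.338 (edgeR). Without 4 weeks replicate 1 their log2 fold changes were 1.93 and 2.19, against 2.77 and 3.37 with it.

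Transcripts of tanycytes and of retinoic acid signalling had lower values in early SP, though none passed the adjusted threshold. Of the 19 members 6 were lower and 0 higher at an unadjusted p below 0.05 in edgeR's test, beside 3.84% and 1.63% of all genes, and 18 had a log2 fold change below 0. The list was chosen with earlier results of these data known, so these shares are not an independent test. The median log2 fold change was -0.96. Their summed level was 279 to 563 CPM in LP, 177 to 380 CPM at 4 weeks and 106 to 289 CPM at 8 weeks. At 8 weeks 5 of 6 sums were below every LP sum, and those of 4 weeks overlapped LP too. Markers of ependyma, which also lines the ventricle, had medians of 26.6, 25.5 and 26.2 CPM in LP, at 4 and at 8 weeks, and those of astrocytes 984, 822 and 922 CPM. Markers of the choroid plexus, in the ventricles too, had medians of 46.02, 43.3 and 23.9 CPM and a median log2 fold change of -0.58, with 2 of 7 lower and 1 higher at an unadjusted p below 0.05. At 4 weeks the tanycyte and retinoic acid list summed to 183 and 380 CPM in replicates 2 and 3, the libraries low in arcuate transcripts. The part of these markers and of punch content in the tanycyte and retinoic acid result was not tested.

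Of the binding proteins of retinoids, Crabp1, which binds retinoic acid in the cytoplasm, had 23.5 to 66.6 CPM in LP (median 30.9), 0.621 to 18.8 CPM at 4 weeks (median 9.17) and 7.37 to 25.5 CPM at 8 weeks (median 13.5). It was below every LP library in 11 of 12, the other being 8 weeks replicate 2 (log2 fold change -1.77, standard error 0.47, adjusted p = 0.316, edgeR; exact permutation p = 0.000215). Its lowest and highest 4 weeks values were in replicates 2 and 3, the libraries low in arcuate transcripts. Rbp4, which carries retinol between cells, had 35.7 to 48.6 CPM in LP and was below that range in 10 of 12 early SP libraries (log2 fold change -0.78, adjusted p = 0.849). Among these was 8 weeks replicate 2, with 0 counts. In 4 weeks replicate 3 Rbp4 was within the LP range, and in 8 weeks replicate 3 above every LP library. Crabp2 had means of 1.99, 1.42 and 0.977 CPM in LP, at 4 and at 8 weeks.

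Of the enzymes that handle retinoids, Aldh1a1, which makes retinoic acid, had a mean of 101 CPM in LP, 60.5 CPM at 4 weeks and 33.4 CPM at 8 weeks (log2 fold change -1.18, adjusted p = 0.622, edgeR). Its 4 weeks mean holds 1 library at 193 CPM, replicate 3, above every LP library. Lrat, which stores retinol as esters and is on no list here, had 3.49, 1.20 and 0.538 CPM (log2 fold change -1.97, adjusted p = 0.466). Aldh1a2 was at 12, 4 and 8 counts, and Cyp26b1, which breaks retinoic acid down, had 2.95, 0.198 and 3.18 CPM. The receptors Rara and Rarb had log2 fold changes of -0.96 and -1.64 (adjusted p = 1.00 and 0.925).

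Tanycyte structural and receptor transcripts also had lower means in early SP. Vim, the intermediate filament vimentin with 1 isoform, had 68.8 to 220 CPM in LP (median 170), 32.96 to 154 CPM at 4 weeks (median 70.5) and 18.2 to 81.7 CPM at 8 weeks (median 70.0). The lowest LP library, replicate 1, lay within the early SP range, and 6 of 12 early SP libraries were below it (log2 fold change -1.14, standard error 0.31, adjusted p = 0.338, edgeR; exact permutation p = 0.00124). Gpr50, an orphan relative of the melatonin receptors found in tanycytes, had 14.01 to 48.6 CPM in LP (median 28.8), 3.73 to 26.2 CPM at 4 weeks (median 8.18) and 2.73 to 11.7 CPM at 8 weeks (median 6.81). It was below every LP library in 10 of 12 (log2 fold change -1.71, standard error 0.56, adjusted p = 0.572, edgeR; exact permutation p = 0.000485). The lowest 4 weeks values of Gpr50 and Vim were in replicates 2 and 3, the libraries low in arcuate transcripts. The part of punch content in these results was not tested. Nes, another intermediate filament, was at 38 counts in LP, 13 at 4 weeks and 2 at 8 weeks (log2 fold change -2.42, adjusted p = 0.572). Rax, a transcription factor of tanycytes, was at 19, 9 and 6 counts (adjusted p = 0.925). Lhx2 was the member above 0, with a log2 fold change of 1.23 (standard error 0.73, adjusted p = 0.925).

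**Figure D3:**
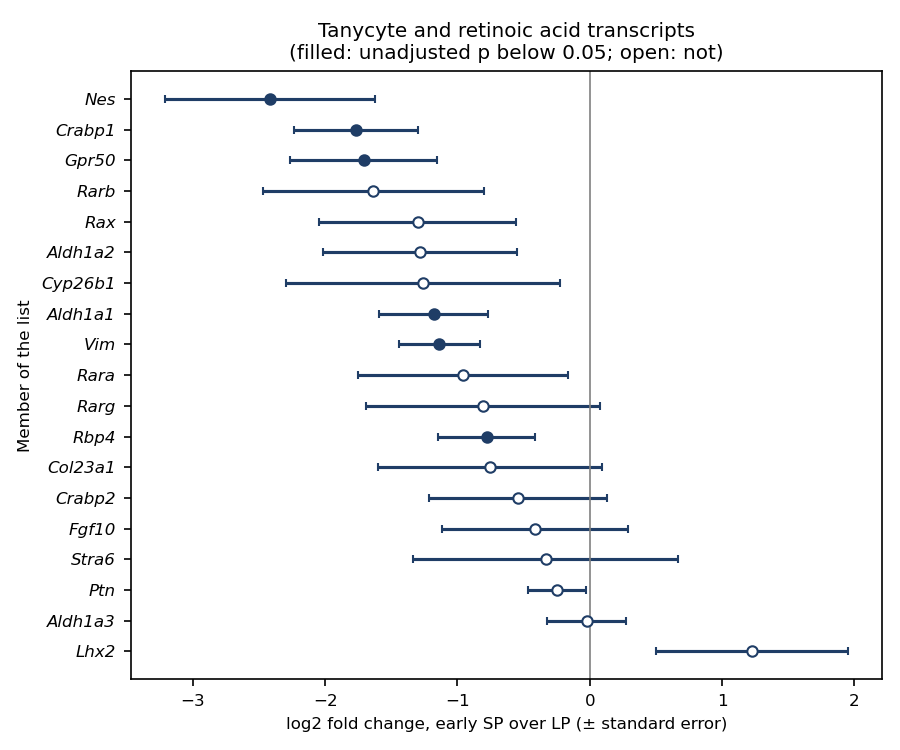
Log2 fold change of early SP over LP (x axis, with standard error bars from edgeR) for the 19 tanycyte and retinoic acid transcripts (y axis), filled where the unadjusted p is below 0.05. The 6 filled points are all on the lower side, from -0.78 (Rbp4) to -2.42 (Nes), and Lhx2 alone lies above 0.

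In contrast with the TSH subunits, the thyroid hormone list as a whole was near the median of all genes. Of its 18 members 0 passed the test, 1 (Dio3) was higher and 0 lower at an unadjusted p below 0.05 in edgeR's test (1.63% and 3.84% of all genes), and the median log2 fold change was 0.11. Dio3, with 1 isoform, was read in 0 of 6 LP libraries, 4 of 6 at 4 weeks and 4 of 6 at 8 weeks, at up to 5.34 CPM, and its 31 counts in early SP make it at least 5.00-fold higher than the limit of 3 counts over the LP group. Its adjusted p was 0.383 (edgeR) and the exact permutation p 0.0644 (2-sided). Dio2 had 1.79 ± 0.968 CPM in LP, 1.23 CPM at 4 weeks and 1.02 CPM at 8 weeks (log2 fold change -0.65, standard error 0.57, adjusted p = 1.00). Dio1 had a total of 1 count over the 18 libraries together.

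Tshr, the receptor of TSH, had 2.57, 1.92 and 0.859 CPM in LP, at 4 and at 8 weeks (log2 fold change -0.87, standard error 0.74). Of the transporters of thyroid hormone, Slco1c1 had 10.5, 10.8 and 10.1 CPM, Slc7a5 had 2.35, 3.20 and 3.19 CPM, and Slc16a10 was at 1 count. The binding proteins Ttr and Crym had log2 fold changes of -1.11 (standard error 0.91) and -0.30 (standard error 0.36). The receptors Thra and Thrb had 0.30 (standard error 0.28) and -0.43 (standard error 0.65), and their partners Rxra, Rxrb and Rxrg 0.68, 0.55 and 0.15. The responsive genes Klf9 and Hr had 0.08 (standard error 0.56) and 1.06 (standard error 0.97), and the co-regulators Ncor1 and Ncoa1 -0.58 and 0.21. The adjusted p of each of these was 1.00.

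The neuropeptides that control feeding had no called change. Of the 18 members of the arcuate list 0 passed the test and 2 were lower at an unadjusted p below 0.05 in edgeR's test (3.84% of all genes), and the median log2 fold change was -0.15. The log2 fold changes were -0.27 for Npy and -0.48 for Agrp, which promote feeding, and -0.69 for Pomc and -0.27 for Cartpt, which restrain it, with standard errors of 0.58, 0.55, 0.42 and 0.28. Their early SP values overlapped LP in most libraries. The 2 lower members were receptors. Npy1r had 24.8 ± 10.7 CPM in LP, 8.84 CPM at 4 weeks and 9.60 CPM at 8 weeks, with 7 of 12 below every LP library (log2 fold change -1.31, standard error 0.63, adjusted p = 0.869; exact permutation p = 0.00566). At 4 weeks it was at 6 and 1 counts in replicates 2 and 3, the libraries low in arcuate transcripts, and the part of punch content was not tested. Mc4r, the melanocortin receptor, was at 12, 3 and 2 counts (adjusted p = 0.831).

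The growth, reproductive and clock lists were also near 0 in the median, at -0.02, -0.22 and -0.08, with 0 called of 14, 16 and 19 members. At an unadjusted p below 0.05 in edgeR's test 0, 2 and 1 of them were lower and 0 higher, beside 3.84% and 1.63% of all genes. Sst, the somatostatin precursor, had 27.1 to 66.04 CPM in LP (median 40.5), 19.9 to 90.9 CPM at 4 weeks (median 48.6) and 21.9 to 119 CPM at 8 weeks (median 78.6), with a log2 fold change of 0.54 (standard error 0.36, adjusted p = 0.925). Kiss1, the kisspeptin precursor that drives the gonadal axis, had 42 counts in LP, 48 at 4 weeks and 2 at 8 weeks (log2 fold change at 8 weeks -3.71, adjusted p = 0.749). The oestrogen receptor Esr1 was at 33, 18 and 2 counts (adjusted p = 0.831 in early SP). Of the clock genes, Cry1, a repressor of the clock, had 4.97, 0.801 and 2.46 CPM, a log2 fold change of -1.55 (standard error 0.77, adjusted p = 0.905).

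In the remaining lists 0 genes passed the test, and a few had an unadjusted p below 0.05, as had 1.63% of all genes on the higher and 3.84% on the lower side. Of the 9 DNA methylation genes in the data Uhrf1 was among these, on the lower side (8, 1 and 0 counts), and Dnmt1, the maintenance methyltransferase, had 12.1, 16.5 and 31.4 CPM (log2 fold change 0.87, adjusted p = 0.925). The immediate early list had a median log2 fold change of -0.22, with 8 of 15 members below 0. On its higher side 2 had an unadjusted p below 0.05, Dusp1 (log2 fold change 1.69, adjusted p = 0.839) and Egr4, which was at 0 counts in LP and 9 in early SP. Of the 10 histamine and monoamine genes 1 was among these on the higher side, the dopamine receptor Drd2, with 0 counts in LP, 11 at 4 weeks and 2 at 8 weeks.

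Between 4 and 8 weeks SP 0 genes changed (0.0%) in edgeR's test, while 917 had an unadjusted p below 0.05 and DESeq2 also called 0. Tshb was lower at 8 than at 4 weeks by a log2 fold change of -2.43 (unadjusted p = 0.0193), and Cga by -0.54 (unadjusted p = 0.555). Bbof1 differed more, at -4.11 (unadjusted p = 0.00351), with 5 libraries read at 4 weeks and 2 at 8 weeks. Chrna3 (0.36), Dhrs7c (0.32), Cd44 (0.33) and Mef2c (0.49) had higher means at 8 weeks with unadjusted p between 0.251 and 0.8.

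The early weeks were also set against the mean of the 36 libraries of 12 to 32 weeks SP, which share the model with the comparisons above. Of 20156 genes 20 changed (0.0992%), 17 higher and 3 lower in early SP, with 1013 at an unadjusted p below 0.05 and 6 called by DESeq2. Chrna3 was higher in early SP by a log2 fold change of 1.52 (standard error 0.29, adjusted p = 0.00913, edgeR). Its group means were 13.7 and 18.2 CPM at 4 and 8 weeks, 11.6 and 9.14 CPM at 12 and 16 weeks and 3.19 to 4.66 CPM from 20 weeks on. Dhrs7c was higher by 2.10 (standard error 0.40, adjusted p = 0.00913), and Prr32 by 1.83 (standard error 0.41, adjusted p = 0.0609). At 12 weeks their means were close to those of 4 weeks, with 4.40 against 4.16 CPM of Dhrs7c and 2.24 against 2.43 CPM of Prr32. At 32 weeks they were 0.251 and 0.534 CPM. Dio3 was higher by 3.31 (standard error 0.54, adjusted p = 0.00691) with 0.532 and 0.383 CPM at 12 and 16 weeks and 0 from 20 weeks on. Crabp1 was lower in early SP by -1.52 (standard error 0.36, adjusted p = 0.0989), with 14.5 CPM at 12 weeks, 59.1 CPM at 28 weeks and 38.8 CPM in LP.

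For the TSH subunits no difference between early and later SP was called. Tshb had a log2 fold change of 0.68 (standard error 0.60) and Cga of -0.28 (standard error 0.53), each with an adjusted p of 1.00. At 32 weeks their means were 9.52 and 138 CPM. The means of Gpr50 and Vim also stayed below LP at 32 weeks, with 12.6 and 74.5 CPM against 29.9 and 154 CPM in LP. The smallest p in this comparison was that of Sugct, outside the rule for named genes and chosen after its values were seen, with 3.48 CPM in LP, 13.96 and 16.4 CPM at 4 and 8 weeks 11.2 CPM at 12 weeks and a mean of 3.74 CPM over 12 to 32 weeks (log2 fold change 2.28, standard error 0.34, adjusted p = 0.000213, edgeR).

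**Figure D4:**
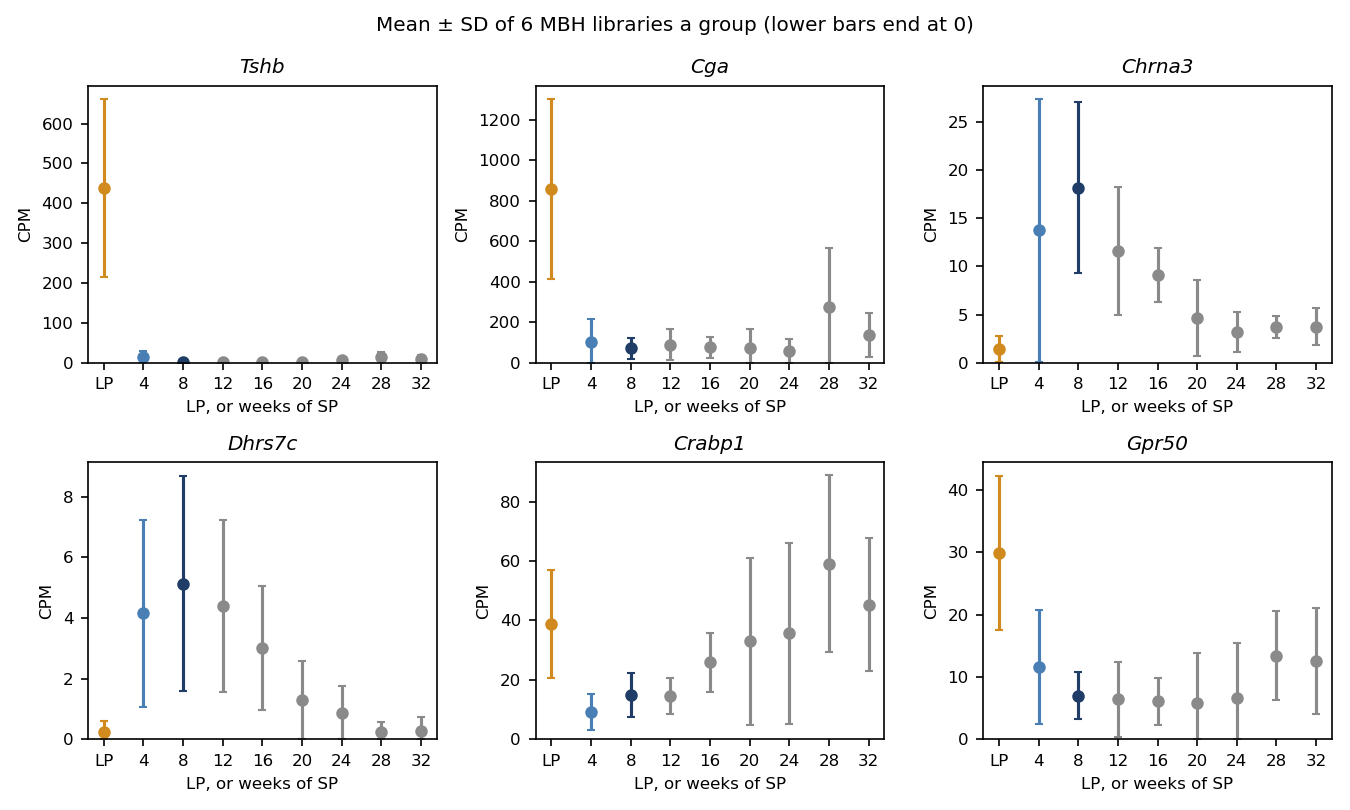
Mean level in CPM (y axis) of 6 transcripts in LP and after 4 to 32 weeks SP (x axis), with SD bars over 6 MBH libraries a group that end at 0 where they would pass it. Tshb, Cga and Gpr50 stay below LP throughout, Chrna3 and Dhrs7c have their highest mean at 8 weeks, and Crabp1 has its lowest at 4 weeks.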

How the data were processed

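RNA from MBH punches was sequenced on the nanopore platform by PCR-cDNA barcoding. Per the paper's methods, the authors called bases with guppy, trimmed with Porechop, filtered with Filtlong, aligned to the mouse genome with Minimap2, estimated isoform expression with Salmon and removed low transcripts with edgeR. What the authors deposited are expected counts, that is Salmon's unnormalized estimates for each isoform, and 99.1% of those above 0 are whole (to within 1e-06).

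The 91460 isoforms were summed to 20156 gene symbols and rounded, with no further filter and 0 unmapped columns. All 54 MBH libraries were fitted in 1 model with 9 groups of 6 (edgeR 4.0.16 quasi-likelihood F-test in its older form, TMM, R 4.3.3), and p was adjusted by Benjamini-Hochberg over all genes, with calls below 0.1. Standard errors are the log2 fold change over the root of F. Single genes were compared by 2-sided exact permutation of mean CPM, with 18564 splits of 12 against 6 (smallest p 5.39e-05) and 924 of 6 against 6 (0.00216). Where a group had no counts, 3 counts in the whole group were taken as its upper limit, for counting error only. P-values measure the spread between hamsters as labelled, with 1 library each. The scripts were tested on simulated counts with 200 of 20156 genes changed 4-fold in early SP. The 200 were drawn from genes counted in at least 9 of the 18 libraries, so recovery of genes counted in fewer was not measured. Of the 200, 52.5% were called, and 20 unchanged genes were called too. A change of that size can therefore be missed.

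Genes are named if called in early SP, 4 weeks or 8 weeks against LP, if among the 10 smallest p in either direction among genes counted in at least 9 of 18 libraries, or by list: the pars tuberalis and thyroid hormone lists whole, 3 members by p of the other pathway lists, a few set neuropeptides and tanycyte genes, and marker lists by their sums. Further list members are named beside these for their roles. A few genes that meet this rule or stand on these lists are not reported here and are left out of the list counts and sums, while the fits and the calls over all genes hold them. The 11 pathway and 12 marker lists and the comparison itself were chosen with earlier results of these data known. The marker lists not described in the report (oligodendrocytes and their precursors, microglia, endothelium, blood and neutrophils) had 0 genes called, with median log2 fold changes of -0.16, -0.17, 0.16, 0.02, -0.10 and 0.00. The tables of the other tissues were not used here.

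Alternatives were DESeq2 1.42.0, its size factors in edgeR, filterByExpr, the newer quasi-likelihood form, replicate number as a block, the 18 libraries alone, the highest isoform of each gene, Gm32262 left out, libraries under 10000 counts left out, a threshold of 0.05, each of the 18 libraries left out in turn and, chosen after the totals were seen, LP and 8 weeks libraries under 500000 counts left out.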

Additional observations from a re-analysis of the deposited data

Results flagged for a closer look

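Among 24 named genes, 72 groups of 6 libraries were tested for a lone value far from the rest (Dixon's test), and 14 were flagged. The test's chance rate of 1 in 20 assumes normal values. It was run on CPM, many of them at or near 0, so that rate need not hold here. In 4 weeks replicate 1 the flagged values were Tshb (40.4 CPM, next 13.2), 2810433D01Rik (12140 CPM, next 1095), Bc1 (392600 CPM, next 51940), Bbof1 (34.6 CPM, next 8.42) and Dio2 (3.85 CPM, next 1.43). This library had 5 of the 14, and its TMM factor was 0.187. In 4 weeks replicate 6 they were Upp2 (4.45 CPM), Plac1 (2.54 CPM) and Lhb (49.3 CPM, next 3.28), 3 transcripts with higher means in LP. Tshb stood out in 8 weeks replicate 5 (10.7 CPM, next 0.462). Ptov1 stood out in 4 weeks replicate 4 (26.2 CPM, next 11.9). In LP these were Platr25 (29.6 CPM) and Lhb (205 CPM, next 35.3) in replicate 3, Kif14 (10.4 CPM) in replicate 6 and Inhba (0.852 CPM) in replicate 5.

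For 5 named genes the early weeks differed from the later weeks of SP by a test of that difference itself (edgeR, adjusted p below 0.1). The log2 fold changes were 1.52 for Chrna3, 1.83 for Prr32, 2.10 for Dhrs7c, 3.31 for Dio3 and -1.52 for Crabp1. Dio3 rests on 31 counts in early SP.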

How the results depend on the processing

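Most calls near the threshold depend on the setting. For early SP against LP 9 genes were called, and 2 after filterByExpr, 1 with the 18 libraries alone, 57 with the highest isoform, 5 without LP and 8 weeks libraries under 500000 counts and 4 at a threshold of 0.05. At 4 weeks 2 became 5 with DESeq2, 1 with the 18 libraries alone, 32 with the highest isoform and 1 without the shallow libraries. At 8 weeks 4 became 2 after filterByExpr, 10 with DESeq2, 1 with the 18 libraries alone, 42 with the highest isoform and 2 without the shallow libraries. Between 8 and 4 weeks 0 became 6 with the highest isoform and was 0 in the other alternatives. Against later SP 20 became 2 after filterByExpr, 6 with DESeq2, 38 with the highest isoform, 13 without the shallow libraries and 9 at 0.05. FilterByExpr left 9221 genes to test. Of the genes called in early SP it removed Upp2, Prr32, Plac1, Platr25, Kif14 and Dhrs7c for low counts, so these were not retested. Cga was kept and had an adjusted p of 0.153 (edgeR). The cause of the other changes was not tested.

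Without 1 library, the early SP count was 4 to 10. It was 4 without LP replicate 2 or 6, 4 weeks replicate 2, 4 or 5, or 8 weeks replicate 1, 4 or 5, and 5 without LP replicate 3 or 8 weeks replicate 3 or 6. The 4 weeks count was 0 to 2, with 1 without LP replicate 1, 2, 3 or 4 and 0 without 4 weeks replicate 4, 5 or 6 (edgeR, 986, 878 and 1012 genes at an unadjusted p below 0.05). The 8 weeks count was 2 to 4, with 2 without LP replicate 2 or 6. That against later SP was 7 to 18, with 7 without 4 weeks replicate 6, 10 without 8 weeks replicate 1, 12 without 4 weeks replicate 2 and 13 without 4 weeks replicate 5 or 8 weeks replicate 4. Without 4 weeks replicate 1 and without 8 weeks replicate 2, the libraries that stood apart, 8 genes each were called in early SP.

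Deviations of same-numbered libraries had r between -0.068 and 0.21 in 18 pairs (median 0.06, 4 above 0.1), against a median of -0.012 in 90 other pairs (5 above 0.1). Since not every pair was above 0.1, the numbers were not taken as pairs, and the main fit takes no account of them. A shared batch need not raise every pair, so this rule cannot exclude one. Yet 10 of 18 libraries correlated best with one of their own number, a hint from the data and not the design. Whether same-numbered libraries shared a batch was not tested. With the replicate block 6 genes were called in early SP, 2 at 4 weeks, 3 at 8 weeks, 0 between them and 11 against later SP. Platr25, Kif14 and Dhrs7c lost their early SP call with it (adjusted p = 0.774, 0.835 and 0.162, edgeR).

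Over 24 named genes and their alternatives, 552 of 661 values kept their direction and side of the threshold, 91 lost the call, 18 gained it and 0 reversed. Tshb was called in 28 of 28 alternatives and Chrna3 in 27 of 28, with an adjusted p of 0.317 in the 18 libraries alone. Depth limits transcripts of a few CPM, since 3 counts over the LP group are 0.285 CPM.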
